A study of Mus musculus with 6 samples.

Results

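The region described here is the stretch of mouse chromosome 3 that holds Sox2 and, about 100 kb downstream of it, the gene's distal control region. Its members are all deposited ATAC-seq peaks that overlapped chr3:34640000-34860000 of the GRCm39 build by at least 1 bp. This window of 220 kb was set by position. No measured value enters its limits, but earlier results of these data were known when it was chosen. The 6 peak lists placed 261 of their 1007167 mouse peaks in this window. Merging peaks from all libraries wherever they shared 1 bp or more gave 63 regions of 259376 in the whole series.

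ATAC-seq maps open chromatin with a transposase that inserts sequencing adapters where DNA is accessible. The cells were E14TG2a, an established line of mouse embryonic stem cells, grown with serum, the cytokine LIF, the MEK inhibitor PD0325901 and the GSK3 inhibitor CHIR99021, and foreign spike-in nuclei were added before transposition. The 3 genotypes were wild type (WT), a knockout of Alkbh5 (KO), and an Alkbh5 allele called del-cIDR, which lacks a stretch of the protein named cIDR (IDR is short for intrinsically disordered region). Each genotype had 2 libraries and all 6 shared the line and the medium. ALKBH5 is an enzyme that removes N6-methyladenosine from RNA. The labels do not state that replicates were separate cultures or that a mutant genotype was more than 1 clone, so the spread between replicates may be technical and genotype and clone cannot be told apart.

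SOX2 is a transcription factor of the SOXB family that binds DNA together with OCT4 and, with NANOG and others, holds embryonic stem cells in the pluripotent state. The gene has a single exon and a CpG-rich promoter, and it lies inside the long noncoding transcription unit Sox2ot. In embryonic stem cells most Sox2 transcription depends on a group of enhancers far downstream, known as the Sox2 control region, which pluripotency factors occupy and which contacts the promoter over the intervening DNA. Elements close to the gene, named Sox regulatory regions, drive reporters in stem cells and neural progenitors, and their removal has less effect on Sox2 in stem cells.

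The promoter is shown first because the widest region of open chromatin in the window was taken to be the promoter region of Sox2. The sequence is the 250 bases before the Sox2 start on the plus strand, from RefSeq on the GRCm38.p6 build, an older build than that of the peaks, and its coordinates are therefore not set beside theirs. Capitals mark the ATGCAAA run and the ATTGG run described next.

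Sox2 promoter: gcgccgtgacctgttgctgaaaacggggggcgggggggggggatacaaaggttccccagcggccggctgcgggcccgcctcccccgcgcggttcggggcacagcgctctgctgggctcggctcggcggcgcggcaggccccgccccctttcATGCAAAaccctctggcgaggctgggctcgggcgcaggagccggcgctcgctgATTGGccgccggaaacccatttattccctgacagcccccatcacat

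These 250 bases held 27 CpG dinucleotides and had a GC content of 72%, at or above 93.6% of 32851 promoters of the same length, whose median was 52.4%. The observed over expected CpG ratio was 0.833, at or above 83.5% of promoters, against a median of 0.373. ATGCAAA is the octamer bound by OCT factors without its last base, began 99 bases before the start on the plus strand, and occurred on either strand in 4.12% of all promoters. ATTGG is the CCAAT box read on the other strand, began 46 bases before the start, and the box occurred in 33.8% of promoters. Both were picked after the sequence had been read.

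Exact matches on both strands were also counted for 8 other motifs, and none lay in the Sox2 sequence. They were the joint SOX and POU core CATTGTNAT (found in 0.670% of promoters), the full octamer ATGCAAAT (1.60%), the SOX core CATTGT (10.7%), the KLF motif GGGNGTGG (15.9%), the ESRRB motif TCAAGGTCA (0.387%), the STAT motif TTCCNGGAA (0.913%), the TCF motif CTTTGAT (3.21%) and the CTCF core GCGCCNCCT (2.74%). The absence of these letters from this window says nothing on whether the factors bind. The sequence of the distal regions on GRCm39 was not analysed here.

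List length was 193905 and 184884 peaks for WT, 164639 and 150680 for KO, and for del-cIDR 157931 and 155128. The WT lists were thus the longest, which bears on every count of calls. The deposited fold of a peak is the pileup of tags at its summit over a local background, with 1 tag added to each. Solving fold and p together returned that pileup, called the height below, as a whole number within 0.1 tags in 100% of peaks, and the median height was 17 to 21 tags across the lists. The local background is a floor near 1 tag (1.01 to 1.26) where the surroundings are closed, and is given below as a multiple of that floor. Total reads, the Alkbh5 locus and markers of stem cells or other cell types were not analysed here.

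Chromatin across the Sox2 window was open in many places. The window held 43 and 49 peaks for WT, 44 and 42 for KO, and for del-cIDR 41 and 42. WT libraries averaged 46 ± 4.24 peaks, KO libraries 43 ± 1.41 and del-cIDR libraries 41.5 ± 0.707 (SD, n = 2). Counts of WT and KO overlapped, and both del-cIDR counts were below both WT counts. As a share of each list, the window held 0.0222% and 0.0265% of the WT peaks, 0.0267% and 0.0279% of the KO peaks, and 0.0260% and 0.0271% of the del-cIDR peaks, so that del-cIDR was not below WT on that scale. The peaks of WT covered 17475.5 ± 384 bp, those of KO 15595.5 ± 977 bp and those of del-cIDR 16825.5 ± 598 bp (SD, n = 2). Of the 63 regions, 30 (47.6%) were called in all 6 libraries, against 38.3% in the series and 37.0% on chromosome 3, and 13 (20.6%) in 1 library, against 25.2% in the series.

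Windows of the same length laid end to end over the genome, 11599 in all, serve as a description of what is usual. The Sox2 window had 63 regions against a median of 18, at or above 99.6% of windows. It had 30 regions called in all libraries against a median of 6, at or above 99.2%. The mean heights of those 30 regions summed to 1943 tags, at or above 98.7% of windows, and the tallest, at 232 tags, was at or above 94.3%.

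Regions are named below by the distance of their mean summit from that of the promoter region, at position 34704078. Positive distances run toward higher coordinates, the direction in which Sox2 is transcribed. The proximal zone reaches 10 kb to each side of that summit, the distal zone runs from 100 to 120 kb downstream, and upstream, middle and far zones lie before, between and after them. Of the summed height of the 30 regions, the distal zone took the largest share. It was 38.1% and 36.3% in the WT libraries, 35.2% and 35.9% in the KO libraries, and 38.5% and 37.2% in the del-cIDR libraries. The proximal zone took 12.5% and 15.2% for WT, 13.9% and 15.1% for KO, and for del-cIDR 13.9% and 15.0%. The shares overlapped among genotypes in the proximal zone. In the distal zone both KO shares were below all 4 others, of which WT replicate 2 came closest. The order was different by width. All called peaks of the distal zone covered 2518 to 2817 bp per library, against 4771 to 6845 bp in the middle zone.

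**Figure D1:**
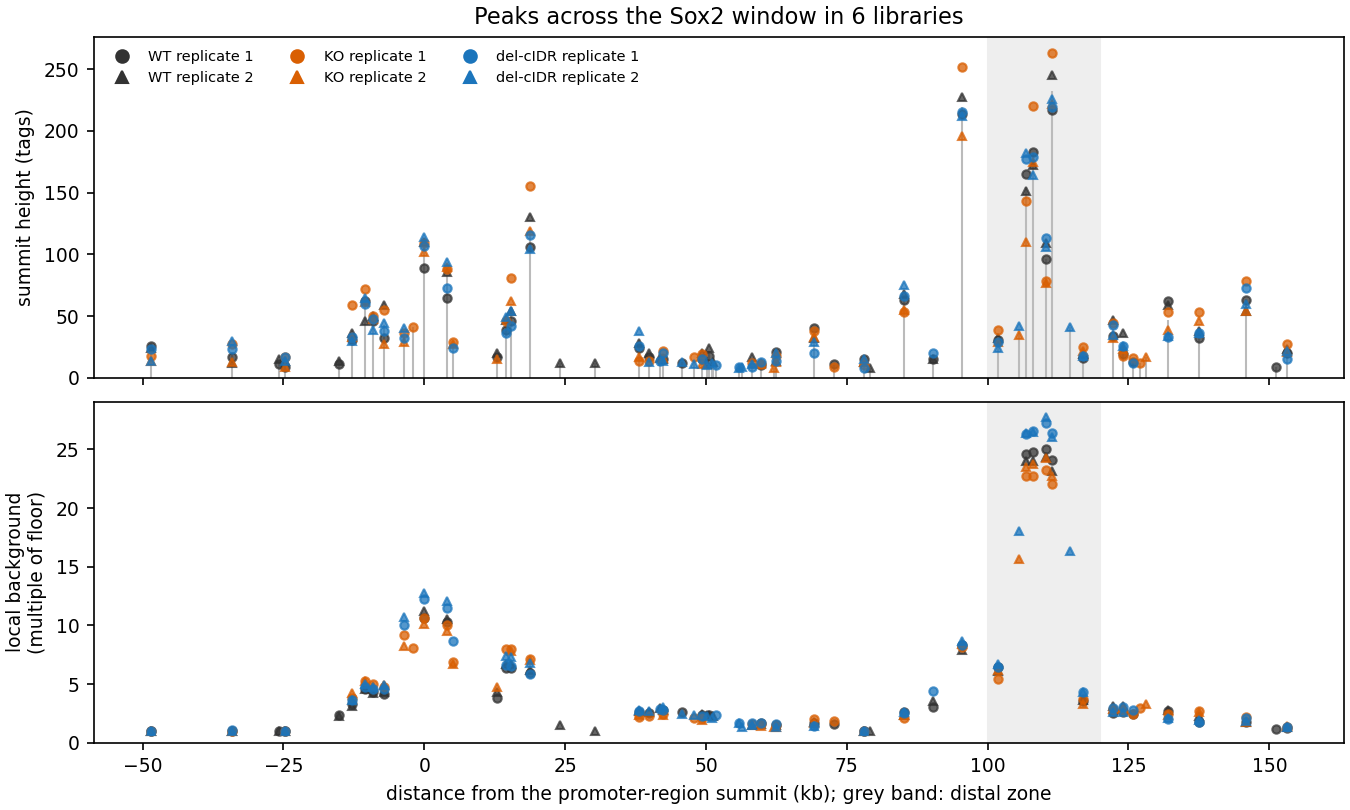
Summit height in tags (upper panel) and local background as a multiple of the lowest background of its list, the floor (lower panel) of every region in the Sox2 window, against distance in kb from the promoter-region summit. Each point is 1 library, and grey lines rise to the mean height over the libraries that called the region. The grey band is the distal zone, where 4 regions reach heights of 77 to 263 tags and background multiples of 22.0 to 27.7.

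The region taken as the promoter, chr3:34702902-34705459, was chosen as the widest region called in all libraries, at 2558 bp, so its width and its calls are no finding. Its summit stood at 89 and 110 tags for WT, 109 and 102 for KO, and for del-cIDR 107 and 114. The summits of 5 of the 6 libraries lay within 34704060 to 34704070, and that of del-cIDR replicate 2 at 34704139. A single peak of 2251 bp, 2533 bp and 2496 bp was called in WT replicate 1 and both del-cIDR libraries, and 3 separate peaks in the other 3 libraries, the tallest of them 704 to 1064 bp wide.

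By its deposited fold the promoter was an ordinary peak, and by its height a tall one. The fold percentile, which is the share of a library's own mouse peaks at or below the value, was 53.9 and 54.0 for WT, 54.5 and 65.9 for KO, and for del-cIDR 49.6 and 50.6. The height percentile was 94.0 and 94.7 for WT, 93.2 and 94.7 for KO, and for del-cIDR 94.5 and 95.2. The local background there was 10.6 and 11.2 times the floor for WT, 10.6 and 10.1 for KO, and for del-cIDR 12.2 and 12.7. By the form of the fold, a raised background lowers the fold of a summit of given height.

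The proximal zone held 3 further regions called in all libraries. The region at +4.1 kb, chr3:34707799-34708346, reached 65 and 86 tags for WT, 88 and 90 for KO, and for del-cIDR 73 and 94, with fold percentiles of 37.5 and 44.3 for WT, 44.5 and 62.6 for KO, and for del-cIDR 29.2 and 41.7. All genotypes overlapped there in raw tags except WT and KO. The region at -7.2 kb, chr3:34696375-34697115, had 32 and 59 tags for WT, 55 and 27 for KO, and for del-cIDR 38 and 44, and the WT and KO libraries each ranged past both del-cIDR libraries. The region at -9.1 kb, chr3:34694962-34695275, was the most even of the 3, with 46 and 50 tags for WT, 50 and 48 for KO, and for del-cIDR 48 and 39.

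The distal control region appeared as a compact group of 4 tall summits at chr3:34810630-34815766, 106.8 to 111.4 kb from the promoter summit. They were grouped, after their values had been seen, as the regions whose local background was at least 20 times the floor. The group spanned 5137 bp, and neighbouring summits lay 1069 to 2224 bp apart. No annotation of this build was used, so its identity with the published control region rests on the distance from Sox2.

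The first and second summits of the group were alike in height in WT. The region at +106.8 kb, chr3:34810630-34811221, stood at 165 and 151 tags for WT, 143 and 110 for KO, and for del-cIDR 177 and 182. The 3 genotypes did not overlap in these raw tags, but WT and KO overlapped once depth was taken out, as given below. The region at +108.1 kb, chr3:34811947-34812322, stood at 183 and 172 tags for WT, 220 and 175 for KO, and for del-cIDR 179 and 164, and the 3 genotypes overlapped. Its summits agreed within 6 bp over all libraries.

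The remaining pair held the lowest and the tallest summit of the group. The region at +110.3 kb, chr3:34814126-34814807, stood at 96 and 109 tags for WT, 78 and 77 for KO, and for del-cIDR 113 and 106. Its summit position varied over 450 bp, and both KO libraries had it at 34814226, while the WT summits were at 34814676 and 34814519 and the del-cIDR summits at 34814306 and 34814578. Heights of this region therefore come from different points within it. The region at +111.4 kb, chr3:34815264-34815766, was the tallest of the window at a mean of 232 tags, with 217 and 245 tags for WT, 263 and 222 for KO, and for del-cIDR 219 and 226.

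Raw tags are not corrected for depth, which KO replicate 2 had least of by its floor of 1.01 tags. The mean height of the group over that of the promoter needs no such correction, and was 1.86 and 1.54 for WT, 1.61 and 1.43 for KO, and for del-cIDR 1.61 and 1.49. The mean height of the group was thus above that of the promoter in all 6 libraries. The lowest summit of the group, +110.3 kb, was below the promoter in WT replicate 2, both KO libraries and del-cIDR replicate 2. For the ratio of group mean to promoter the 3 genotypes overlapped, with means of 1.70 ± 0.225, 1.52 ± 0.130 and 1.55 ± 0.0853 (SD, n = 2).

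Ranked by deposited fold, the control region did not stand out from its list. Mean fold percentiles over the 6 libraries were 31.3, 42.5, 4.70 and 58.4 for the 4 regions from +106.8 kb to +111.4 kb, while mean height percentiles were 97.4, 98.5, 93.1 and 99.5. At +106.8 kb the fold percentile was 43.8 and 29.0 for WT, 24.0 and 19.8 for KO, and for del-cIDR 35.1 and 36.1. The local background averaged over the group was 24.6 and 23.9 times the floor for WT, 22.7 and 23.6 for KO, and for del-cIDR 26.6 and 26.7. That multiple chose the 4 regions, and by the form of the fold it lowers their fold percentile at a given height.

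Fold and height percentiles lay closer together at some other strong summits, but not at all of them. At +4.1 kb the means were 43.3 by fold and 91.2 by height, and at +15.5 kb 41.6 and 83.8. The region at +95.4 kb, chr3:34799217-34800252, had 214 and 227 tags for WT, 252 and 196 for KO, and for del-cIDR 215 and 212, as tall as the control region, with a background of 7.91 to 8.71 times the floor. Its fold percentile was 97.1 and 96.6 for WT, 96.8 and 96.4 for KO, and for del-cIDR 95.9 and 94.8. The region at +145.8 kb, chr3:34849561-34850174, had 63 and 54 tags for WT, 78 and 54 for KO, and for del-cIDR 73 and 60. With a background of 1.73 to 2.19 times the floor, its mean fold percentile of 95.2 was above its mean height percentile of 86.8.

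**Figure D2:**
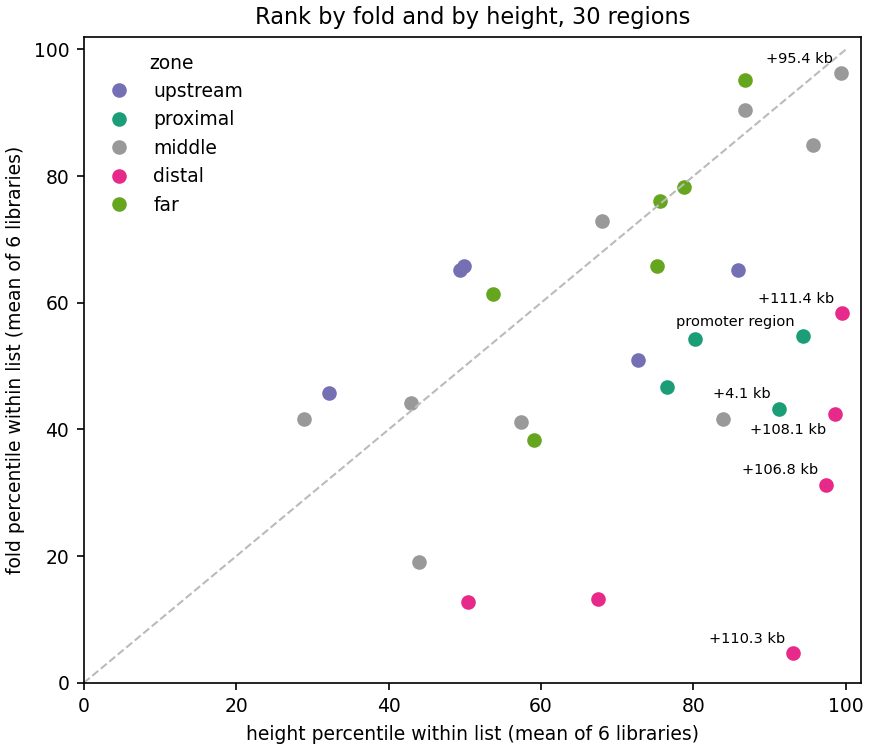
Mean fold percentile against mean height percentile within each library's own list, for the 30 regions called in all 6 libraries, coloured by zone; the dashed line marks equal ranks. The promoter (94.4 by height, 54.7 by fold), the +4.1 kb region (91.2 by height, 43.3 by fold) and the 4 control-region summits lie far below the line. The +95.4 kb region lies near it (99.3 by height, 96.2 by fold).

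Between gene and control region the chromatin was open at a few strong sites separated by weak ones. Of the 31 regions of the middle zone, 9 were called in all libraries and 8 in a single library. After the +95.4 kb region, the highest fold percentiles were at +85.2 kb, chr3:34788951-34789452, with 63 and 68 tags for WT, 53 and 55 for KO, and for del-cIDR 66 and 75. The region at +18.7 kb, chr3:34722576-34722956, picked after its values were seen, reached 106 and 130 tags for WT, 155 and 119 for KO, and for del-cIDR 116 and 104.

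The upstream zone was weaker, with a median of 20.3 tags over the mean heights of its 5 regions called in all libraries, against 32 in the middle and 39.7 in the far zone. The region at -10.5 kb, chr3:34693400-34693977, had 62 and 46 tags for WT, 72 and 61 for KO, and for del-cIDR 60 and 65. The region at -48.6 kb, chr3:34655409-34655872, had 26 and 24 tags for WT, 18 and 14 for KO, and for del-cIDR 23 and 14. The margins of the distal zone were low as well. The region at +101.8 kb, chr3:34805689-34805995, had 31 and 32 tags for WT, 39 and 29 for KO, and for del-cIDR 29 and 24. The region at +117.0 kb, chr3:34820749-34821502, had 16 and 19 tags for WT, 25 and 22 for KO, and for del-cIDR 18 and 18.

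For the genotype comparisons, each height was divided by the median height of the autosomal regions called in all libraries of its own list, which was 33 and 36 tags for WT, 34 and 27 for KO and 31 for each del-cIDR library. The log2 of this quotient is called the relative height. It takes out depth, and also any change that all regions share. With 2 libraries against 2 the smallest two-sided p an exact permutation test can give is 0.333, so no difference below can pass a threshold of 0.05, and what is given is its size and whether the libraries overlapped. The comparisons of KO and of del-cIDR with WT share the WT libraries.

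In KO cells, more of the Sox2 window lay above WT than below it. Relative height was higher in both KO libraries than in both WT libraries at 16 of the 30 regions (53.3%), where the same held for 35.6% of regions in the whole series. It was lower at 4 (13.3%), against 23.7% in the series. The median difference over the window was 0.27 on the log2 scale, against 0.08 over all regions and 0.03 over chromosome 3. The 30 regions are neighbours on 1 chromosome and are not independent of each other.

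The promoter was among those higher in KO. Its relative height was 1.43 and 1.61 in WT and 1.68 and 1.92 in KO, a difference of 0.28, or 0.16 without KO replicate 2. At +4.1 kb the difference was 0.44, from 0.98 and 1.26 in WT to 1.37 and 1.74 in KO, or 0.25 without KO replicate 2. Over the 4 proximal regions the mean relative height was 0.71 and 1.01 in WT and 1.08 and 1.12 in KO, a difference of 0.24 (exact permutation p = 0.333), which was 0.11 without WT replicate 1 and 0.37 without WT replicate 2. The mean fold percentile of the same regions overlapped, at 49.4 and 56.1 in WT and 51.2 and 53.6 in KO, and the difference of -0.36 changed sign with lists of equal length (9.62).

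The control region did not move as a block in KO. Relative height was higher than WT at +108.1 kb by 0.33 and at +111.4 kb by 0.25, at +110.3 kb, with summits at other positions, the difference was -0.21, and at +106.8 kb the libraries overlapped, at 2.32 and 2.07 in WT against 2.07 and 2.03 in KO. Outside the group, the weak margins at +101.8 kb and +117.0 kb were higher in KO by 0.28 and 0.61. At +117.0 kb, where the difference was the largest of the zone, summits moved over 540 bp. With these margins included, the 6 distal regions averaged 1.32 and 1.27 in WT and 1.45 and 1.51 in KO. The difference was 0.19 without overlap (exact permutation p = 0.333). With a −log10 q of at least 5 it was 0.05 and with lists of equal length 0.09, and the libraries then overlapped (exact permutation p = 0.667 for each). Their mean fold percentile was 31.1 and 25.7 in WT and 31.8 and 31.8 in KO, a difference of 3.41 (exact permutation p = 0.333) that became 10.1 with lists of equal length, 0.52 with a −log10 q of at least 5, 0.56 when peaks were ranked by q, 0.95 when ranked by height, and 0.68 without WT replicate 2. The local background of the zone was 18.1 and 17.6 times the floor in WT and 16.7 and 17.3 in KO, which did not overlap.

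Among the other regions, the +95.4 kb region was 0.20 higher in KO than in WT, at 2.86 and 2.89 against 2.66 and 2.70. The largest excess in KO, 0.69, was reached at both +15.5 kb and +137.5 kb. The most negative difference was -0.56 at +38.1 kb, where KO had 14 and 17 tags at 34742384 and 34742348 and the 4 other libraries had their summits between 34742088 and 34742094. That difference, too, compares different points.

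The del-cIDR cells were seldom below WT in the window. Relative height was higher in del-cIDR at 13 of 30 regions (43.3%), where the series had 28.7%, and lower at 1 (3.33%), where the series had 17.9%. The median difference was 0.11, against 0.06 over all regions and 0.07 over chromosome 3.

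The promoter was 0.31 higher in del-cIDR than in WT, at 1.79 and 1.88 against 1.43 and 1.61. The proximal zone as a whole overlapped, at 0.99 and 1.08 in del-cIDR, with a difference of 0.17 from WT (exact permutation p = 0.667), which was 0.02 without WT replicate 1 and 0.28 without WT replicate 2. In the control region the difference was 0.34 at +106.8 kb, from 2.07 and 2.32 in WT to 2.51 and 2.55 in del-cIDR (0.21 without WT replicate 2), 0.25 at +110.3 kb and 0.10 at +111.4 kb, all without overlap, and the libraries overlapped at +108.1 kb. The distal zone averaged 1.47 and 1.41 in del-cIDR, 0.15 above WT (exact permutation p = 0.333), or 0.08 without WT replicate 2 and 0.10 without del-cIDR replicate 1.

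By fold percentile the del-cIDR libraries were instead below WT. The proximal mean was 43.5 and 44.6 in del-cIDR, a difference of -8.71 (exact permutation p = 0.333), and the distal mean 22.0 and 20.5, a difference of -7.15 (exact permutation p = 0.333). With lists of equal length both differences changed sign, to 1.35 and 2.42. Ranked by height they were -1.59 and -1.66, ranked by q the proximal one was -3.53, and leaving out a WT library moved the proximal one to as little as -5.38 (without WT replicate 2) and the distal one to -4.42 (without WT replicate 1). The local background of the distal zone was 19.5 and 19.6 times the floor in del-cIDR, above the 18.1 and 17.6 of WT, and that of the proximal zone 8.23 and 8.62 against 7.37 and 7.60. The part of list length and of local background in the percentile differences was not tested beyond these values.

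The region at +132.0 kb, chr3:34835590-34836266, was the 1 region of the 30 at which the relative heights of both del-cIDR libraries were below those of both WT libraries. It had 62 and 59 tags for WT, 53 and 39 for KO, and for del-cIDR 33 and 34. Relative height was 0.91 and 0.71 for WT, 0.64 and 0.53 for KO, and for del-cIDR 0.09 and 0.13, so that the genotypes did not overlap, with differences from WT of -0.23 in KO and -0.70 in del-cIDR. Without WT replicate 1 the KO difference was -0.13. The summits lay within 56 bp of each other in the 6 libraries.

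**Figure D3:**
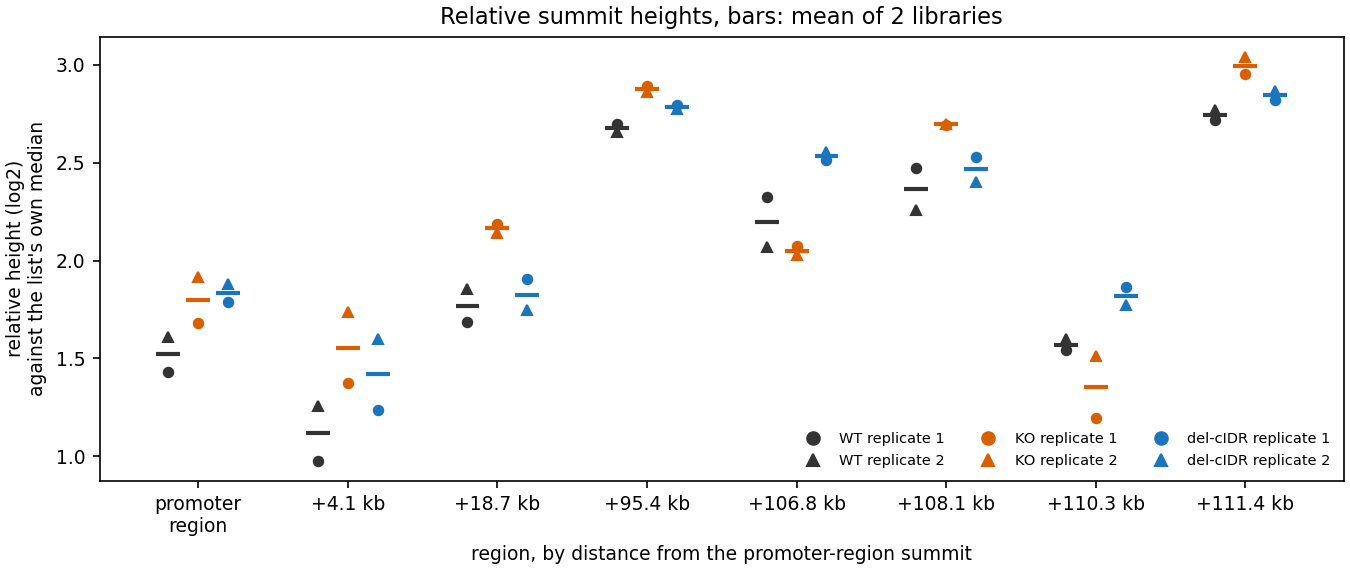
Relative height (log2) at the promoter region and 7 downstream regions, with points for libraries and bars for the mean of 2. The reference is each library's median height over the autosomal regions called in all libraries. By mean, KO stands highest at +4.1 kb, +18.7 kb, +95.4 kb, +108.1 kb and +111.4 kb. The del-cIDR mean stands highest at the promoter region, +106.8 kb and +110.3 kb.

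The 2 mutants were also set against each other. Relative height was higher in del-cIDR than in KO at 4 of 30 regions (13.3%), where the series had 26.7%, and lower at 13 (43.3%), where the series had 30.6%. The median difference over the window was -0.10, against -0.02 over all regions and 0.02 over chromosome 3. Zone means of the mutants overlapped, with differences of -0.07 in the proximal and -0.04 in the distal zone (exact permutation p = 0.667 for each). Of the 4 regions higher in del-cIDR, a pair lay in the control region, at +106.8 kb (0.48) and +110.3 kb (0.46), the others being +38.1 kb (0.99) and +85.2 kb (0.35, or 0.16 without KO replicate 1 and 0.54 without KO replicate 2). At +108.1 kb and +111.4 kb the sign was opposite, with differences of -0.23 and -0.15. The KO and del-cIDR summits lay at different positions at +38.1 kb and +110.3 kb, so the differences there compare different points. The fold percentiles of both zones were lower in del-cIDR than in KO, with differences of -8.35 in the proximal and -10.6 in the distal zone (exact permutation p = 0.333 for each), or -0.49 and -2.61 when ranked by height, -2.38 and -6.30 when ranked by q, and -5.29 in the distal zone with a −log10 q of at least 5.

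Ratios of neighbouring summits inside a library need no scaling between lists, and they were taken for the control region after its heights had been seen. The +106.8 kb summit over the +108.1 kb summit was 0.902 and 0.878 for WT, 0.650 and 0.629 for KO, and for del-cIDR 0.989 and 1.11. The 3 genotypes did not overlap, with means of 0.890 ± 0.0168, 0.639 ± 0.0152 and 1.05 ± 0.0855 (SD, n = 2). The difference between KO and WT was -0.48 on the log2 scale, and 32.9% of 21874 pairs of neighbouring regions less than 5 kb apart in the series differed by at least that much in either direction. The difference of 0.71 between del-cIDR and KO was reached by 15.8% of pairs.

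The KO libraries lay apart from the 4 others in the other neighbouring pairs as well. Both of these pairs include the +110.3 kb summit, so they are not separate instances. The height of that summit comes from different points in KO and in the other libraries. The +108.1 kb summit over the +110.3 kb summit was 1.91 and 1.58 for WT, 2.82 and 2.27 for KO, and for del-cIDR 1.58 and 1.55, and 26.9% of pairs in the series differed by at least as much as KO from WT. The +110.3 kb summit over the +111.4 kb summit was 0.442 and 0.445 for WT, 0.297 and 0.347 for KO, and for del-cIDR 0.516 and 0.469, and 33.7% of pairs differed by as much. Differences of this size between KO and WT were thus common among all neighbouring pairs of the series. Those pairs were not matched for height. The median height of regions called in all libraries was 32 tags, and weaker summits carry the larger counting error. The shares therefore do not tell how common such differences are among summits as tall as these.

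The window held 10 such pairs. KO and WT libraries did not overlap at 6, where 52.6% of pairs in the series did not. The del-cIDR and WT libraries did not overlap at 2, against 42% in the series, and the del-cIDR and KO libraries at 5, against 51.4%. No genotypes overlapped at 2 pairs, against 15.2% in the series.

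**Figure D4:**
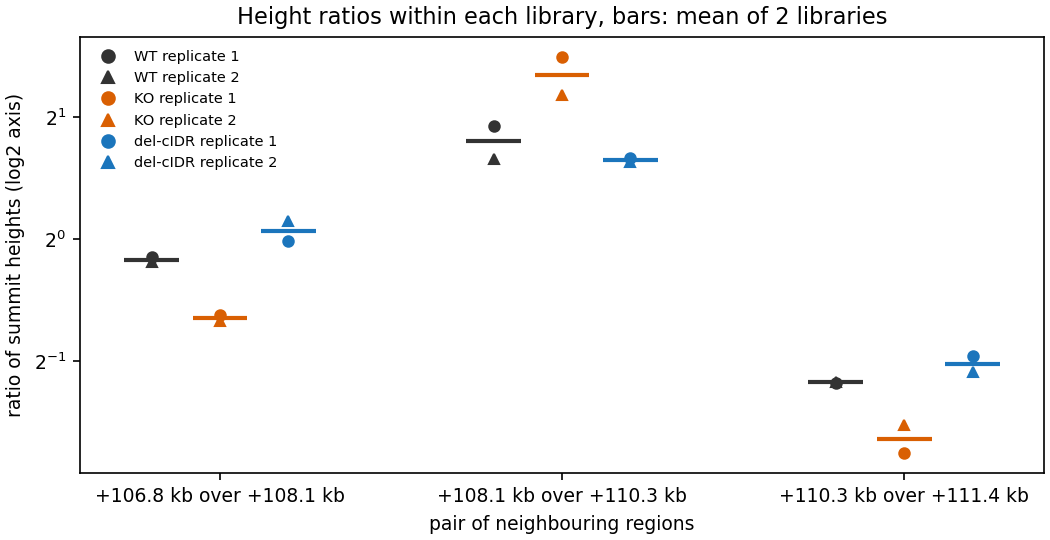
Ratio of summit heights of neighbouring control-region summits within each library, on a log2 axis, with points for libraries and bars for the mean of 2. The KO libraries lie apart from the 4 others at each pair, for example at 0.650 and 0.629 against 0.878 to 1.11 for +106.8 kb over +108.1 kb. The other pairs share the +110.3 kb summit, whose position differed between KO and the other libraries.

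Which regions were called also varied, mostly at weak sites. A region called in both KO and neither WT library occurred 2 times among 63 (3.17%), against 1.89% of regions in the series, and the reverse 4 times (6.35%), against 7.22%. A region called in both del-cIDR and neither WT library occurred 2 times, against 0.931% in the series, and the reverse 4 times, against 5.33%. A region called in both del-cIDR and neither KO library occurred 1 time, against 3.59%, and the reverse 0 times, against 3.5%. A region without a call may be open below the limit of calling.

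Near the gene, calls appeared in mutant lists. The region at -3.5 kb, chr3:34700450-34700644, was called in all 4 mutant libraries and in neither WT library, where KO had 36 and 29 tags and del-cIDR had 32 and 40. Over the series 502 of 259191 regions (0.194%) had this pattern. Its fold percentile was 1.27 and 3.29 for KO, against 0.37 and 1.77 for del-cIDR, near the bottom of each list. Its height percentile was far higher, at 70.4 and 69.5 for KO, and for del-cIDR 68.4 and 75.4. By −log10 p its percentile was 28.2 and 32.5 for KO, and for del-cIDR 17.5 and 34.1, and the local background was 8.22 to 10.7 times the floor. The region at +5.2 kb, chr3:34709085-34709337, was called in KO with 29 and 27 tags and in del-cIDR replicate 1 with 24 tags.

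Other regions were called in WT and missing from a mutant. The region at -25.8 kb, chr3:34678173-34678399, had 11 and 15 tags in WT only, the region at -15.2 kb, chr3:34688769-34688956, had 11 and 14, and the region at +50.6 kb, chr3:34754540-34754726, had 18 and 24. The region at +13.0 kb, chr3:34716912-34717237, had 17 and 20 tags in WT and 15 in KO replicate 2, and the region at +90.3 kb, chr3:34794303-34794547, had 15 tags in each WT library and 20 in del-cIDR replicate 1. The region at +55.8 kb, chr3:34759679-34760007, was called only in del-cIDR, with 9 and 8 tags. All 6 were weak beside the promoter and the control region, and the WT lists were the longest.

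**Figure D5:**
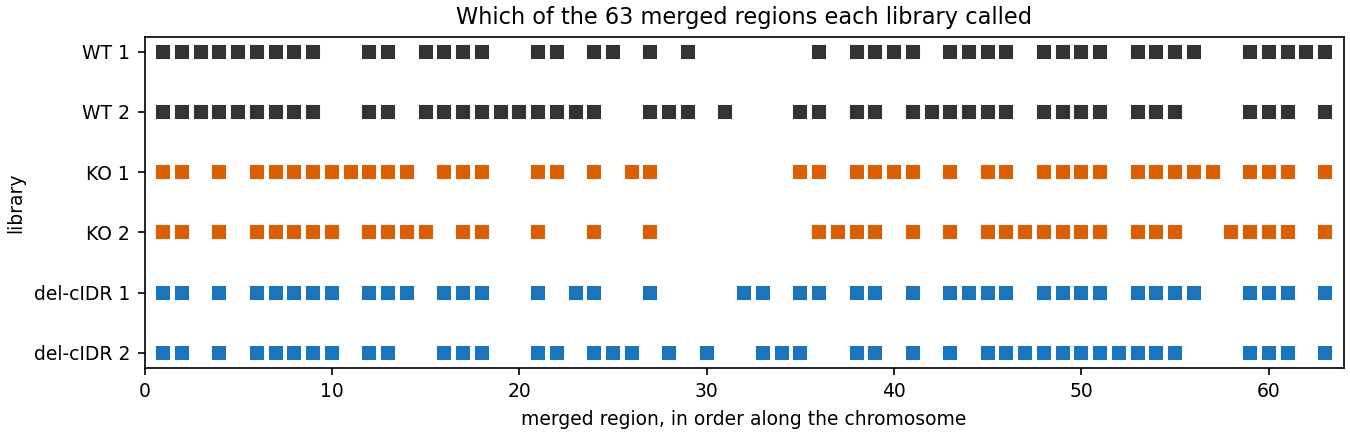
Calls of the 63 merged regions of the Sox2 window, in order along the chromosome, with a filled square where a library called the region. Of the 63, 30 columns are filled in all 6 libraries and 13 in only 1.

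Summit positions were compared over all libraries. Over the 6 libraries the summit of a region moved by 3 to 540 bp, with a median of 59 bp over the 30 regions and 69 bp over all regions called in all libraries. Summits agreed within 50 bp at 11 of 30 regions, against 32.8% in the series, and within 100 bp at 22, against 69.8%. The tightest was the -10.5 kb region at 3 bp, and the widest the +117.0 kb region at 540 bp.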

How the data were processed

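ATAC-seq peaks of 6 libraries (3 genotypes, 2 each, grouped by sample title) were analysed. The submitters' processing notes name the build GRCm39 and the tools MACS2, BWA, fastp, Picard, SAMtools and featureCounts. Not given in the sources used here are versions, settings and whether reads were shifted to the cut site. The authors deposited 1 peak list per library, not pooled; peaks on the spike-in sequence were kept apart. The deposited fold is a ratio of summit pileup to local background. The deposited significance is −log10 of p and of q. The deposited score is a rescaled −log10 q and was not used. No list gives read totals, so depth was read from the lowest local background; heights are tag counts and weak summits carry the larger counting error.

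Heights and backgrounds were solved from fold and p (tested on simulated data), peaks were merged at 1 bp overlap, and of several peaks of a library in a region the one with the highest fold was used (Python 3.11.15, numpy 2.4.6, pandas 2.3.3, scipy 1.17.1, matplotlib 3.10.9). Percentiles refer to each library's own mouse list. Zone means use regions called in all libraries. Genotypes were compared by exact two-sided permutation tests on 2 against 2 libraries.

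Distances were planned from the annotated Sox2 start; with no GRCm39 annotation used here, they run from the mean summit of the widest region called in all libraries. Promoters of other genes, genes most like Sox2, marker genes and motifs at summits were therefore not analysed here. Regions named with their height in every library were the 5 highest by mean fold percentile in the proximal and distal zones and the 2 highest in each other zone, plus every region called in both libraries of a genotype and neither of another; +110.3 kb, +18.7 kb, +15.5 kb, +38.1 kb and +137.5 kb were named after their values were seen. The window, zones and measures were chosen with earlier results of these data known. Alternatives were a −log10 q of at least 5, equal list lengths, 50% overlap, ranks by q or height, 1 peak per region, chromosome 3 scaling, a replicate block and leaving out each library.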

Additional observations from a re-analysis of the deposited data

How the results depend on the processing

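With lists of equal length, the proximal fold percentile difference between KO and WT became 9.62, that between del-cIDR and WT 1.35, the distal one between del-cIDR and WT 2.42, and the distal relative height difference between del-cIDR and KO 0.0143. Each had the opposite sign in the full lists, at -0.36, -8.71, -7.15 and -0.04. With a −log10 q of at least 5, the first became 0.11 and the last 0.12. The cause was not tested. Of 81 values of zone differences and counts under alternatives other than leaving out a library, 75 kept their direction and, for counts, their size within 1.5 times. The 81 include the replicate block, which repeats the main differences and so could not turn a sign. The 50% overlap left the zone percentile differences as they were. Some leave-outs dropped a library outside the comparison. Without WT replicate 1, for example, the proximal percentile difference of del-cIDR and KO stayed at -8.35. These values say little on stability. Leaving out a library kept 93 of 96. The exceptions were the proximal percentile difference of KO and WT, from -3.69 to 2.97, with the opposite sign without WT replicate 2 (2.97) or KO replicate 1 (0.82), and the distal relative height difference of del-cIDR and KO, from -0.0798 to 0.00477, with the opposite sign without KO replicate 2. The proximal background multiple of KO minus WT ranged from -0.12 to 0.12, with 0.12 without WT replicate 2 or KO replicate 2. At single regions the relative height difference kept its sign in 328 of 351 values. All 23 that changed sign were at comparisons whose libraries overlapped, and 0 of 232 did elsewhere. Where libraries do not overlap, leaving out a library cannot turn the sign at a given scaling. The 0 of 232 was thus largely fixed in advance and is no support for those differences. The regions called in all libraries numbered 24 to 32. A replicate block left each difference as it was, such as 3.41 for the distal percentile of KO minus WT, where the smallest exact p is 0.5. Replicate differences of 2 genotypes correlated at -0.0121 to 0.00520. These correlations do not tell whether libraries of the same number were handled together. With 2 libraries a group, a p that misses the threshold does not show that groups were alike, and read depth limits the calls at weak sites.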
